A study of Mus musculus with 12 samples.

Results

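Expression of 9 genes of neutrophil attraction and retention was examined in murine neuroblastoma, a tumor of the sympathetic nervous lineage. The genes were chosen by name, with earlier results of these data known. They were the ligands Cxcl1, Cxcl2, Cxcl3 and Cxcl5 with their receptor Cxcr2, and the growth factor Csf3 with its receptor Csf3r. The retention signal Cxcl12 and its receptor Cxcr4 completed the set. Each gene had 1 probe set, so the set is 9 of the 19505 genes that were named on the array. The 12 tumors, 1 array each, had been grown from neuroblastoma cells in mice of the inbred A/J strain, and the tissue was frozen. No treatment was given to the 3 control tumors. The other 9 had received high intensity focused ultrasound (HIFU), an acoustic method whose mechanical fractionation of tumor tissue the study set out to assess, and formed groups of 3 labelled 24, 48 and 72 h. These times were taken as hours from treatment to sampling, which the labels leave unsettled. The labels name neither the cell line nor the animals behind each tumor. The spread between arrays that the p-values rest on may therefore not be one between animals.

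Cxcl1, Cxcl2, Cxcl3 and Cxcl5 are small secreted proteins that bind Cxcr2 on neutrophils and draw them along a gradient into injured or infected tissue. Csf3 encodes granulocyte colony-stimulating factor, which acts through Csf3r to drive the making and release of neutrophils in the bone marrow. Cxcl12, made mainly by stromal and endothelial cells, holds neutrophils and other blood cells in the marrow through Cxcr4. The ligand genes Cxcl1 and Cxcl2 are known to be induced through NF-kappaB, a transcription factor of inflammation that binds kappaB motifs in DNA.

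Per the RefSeq table of assembly GRCm38.p6, the 4 Cxcr2 ligand genes lie in a run of 7 neighbouring protein-coding genes on mouse chromosome 5, in the order Cxcl5, Ppbp, Pf4, Cxcl3, Cxcl15, Cxcl1 and Cxcl2. RefSeq promoter windows (GRCm38.p6) were matched for 7 of the 9 genes; Cxcl5 and Csf3 had no entry. The 110 bases before the annotated start of Cxcl1 (chr5:90891135-90891244, plus strand), Cxcl2 (chr5:90903789-90903898, plus strand) and Cxcl3 (chr5:90785991-90786100, plus strand) are shown because these are neighbouring genes of one family whose signals on the arrays did not follow each other in all cases. Capitals mark the longest run of letters that the 250 bases before the starts of all 3 genes share, GGGAATTTCCC.
Cxcl1: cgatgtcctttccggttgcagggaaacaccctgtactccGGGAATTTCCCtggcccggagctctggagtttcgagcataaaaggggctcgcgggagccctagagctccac
Cxcl2: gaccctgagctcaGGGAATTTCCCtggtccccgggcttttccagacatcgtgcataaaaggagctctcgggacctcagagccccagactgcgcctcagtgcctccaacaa
Cxcl3: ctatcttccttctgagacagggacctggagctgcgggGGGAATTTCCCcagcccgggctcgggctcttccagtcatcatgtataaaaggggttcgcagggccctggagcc

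This run of 11 letters has the form of a kappaB motif. It began 71 bases before the annotated start in Cxcl1, 97 in Cxcl2 and 73 in Cxcl3. Cxcl1 and Cxcl2 shared a longer run of 14 letters, GGGAATTTCCCTGG. Searched on both strands in RefSeq windows of 300 bases, GGGAATTTCCC was in 14 of 32851 windows (0.0426%), 3 of them those of the genes that defined it, and it was not found in the windows of Cxcr2, Csf3r, Cxcl12 or Cxcr4. A match describes these letters and is not a measured binding site.

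All values below are log2 signals per probe set as deposited, and differences are log2 differences; levels of different genes are not compared, because each probe set has its own response. The control tumors carried neuroblastoma genes. Of 12 listed markers 10 were measured, among them Th and Dbh of catecholamine synthesis. The mean signal over the 10 was between 9.87 and 12.17 in controls and between 9.33 and 11.94 in HIFU tumors. Single markers had control means from 5.60 for Ddc to 15.55 for Chgb. By the median correlation over probe sets, 0.973 in each case, arrays were no more alike within groups than between them. The range was 0.951 to 0.993 within groups and 0.915 to 0.988 between them. HIFU_72h replicate 2 stood farthest out on the first principal component. The controls differed in skeletal muscle genes, whose median over 18 markers was 2.19 above the control mean in control replicate 3 and 1.41 and 0.53 below it (-1.41 and -0.53) in the other two. In the HIFU arrays that median was between 2.26 and 5.58 above the control mean.

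None of the 9 genes passed the adjusted threshold of 0.05 at any time (limma, Benjamini-Hochberg over all 22206 probe sets), and few probe sets of the array did. The background was 0.054% of probe sets at 24 h, 0.0045% at 48 h, 0.00901% at 72 h and 0.018% when the HIFU groups were averaged and set against control. At an unadjusted p under 0.05, 0 of the 9 genes differed at 24 h, 4 at 48 h, 4 at 72 h and 5 for the mean of the HIFU groups, all with a higher mean in HIFU tumors. The corresponding shares of all probe sets were 9.84%, 13.3%, 11.2% and 14.6%. Between HIFU groups no gene or other probe set passed the adjusted threshold (0%), and at an unadjusted p under 0.05 there were 0 members from 24 to 48 h (3.89% of probe sets), 1 from 48 to 72 h (6.26%) and 2 from 24 to 72 h (5.57%). In the F test over the 3 comparisons with control, 0 members passed, with adjusted p from 0.450 for Cxcl12 to 0.818 for Csf3 (limma), against 0.00901% of probe sets. At an unadjusted p under 0.05 the F test held 3 of the 9 genes, Cxcl12, Cxcr2 and Csf3r, against 9.34% of probe sets. The median difference of the 9 genes from control was 1.07 at 24 h, 2.20 at 48 h and 2.28 at 72 h, against 0.00, 0.01 and -0.06 over all probe sets. The genes were picked with earlier results of these data known, so comparisons with all probe sets describe the set without testing it. The signal was far above all controls on some HIFU arrays for Cxcl2, Cxcl3, Cxcr2, Csf3r and Cxcl12. Cxcl5 overlapped the controls in every HIFU group, with its highest values in 48 h replicate 2 and 72 h replicate 2. For Cxcr4 the 72 h arrays were all above the controls, with the highest in replicate 2, and the 24 and 48 h groups spanned the controls. Cxcl1 and Csf3 had narrow ranges that overlapped the controls in every group.

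**Figure D1:**
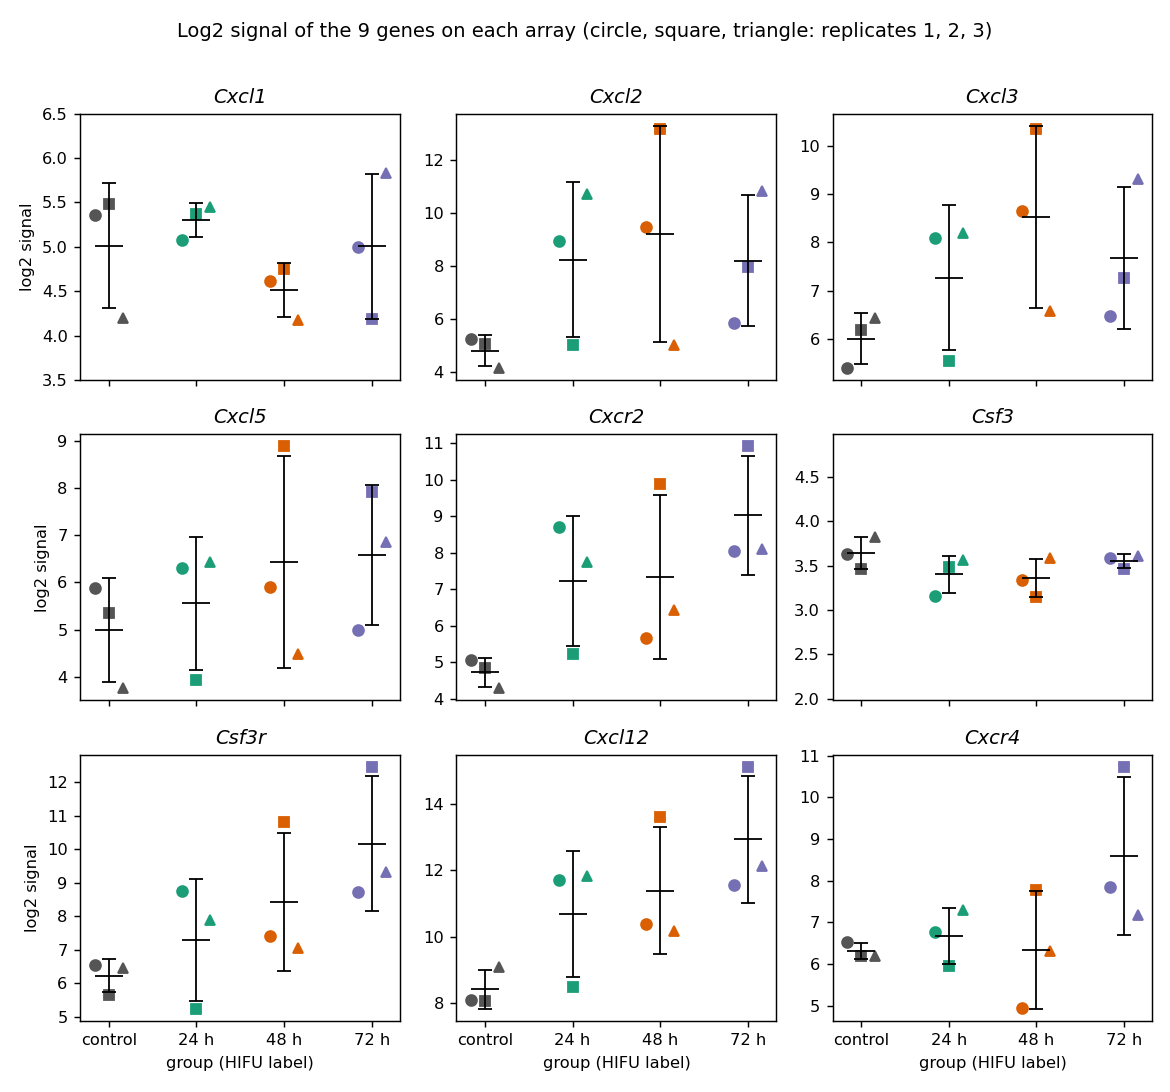
Log2 signal (vertical axes, a scale per gene) of the 9 genes in the 4 groups, with a point per array and the mean ± SD of the 3 arrays in black. Cxcl2 spans 5.03 to 13.17 among the 48 h arrays, Cxcr2 is above all controls on each HIFU array, and Csf3 stays between 3.15 and 3.82 throughout.

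Among the ligands, Cxcl2, also called macrophage inflammatory protein 2, had the widest range. Its signals were 5.24, 5.05 and 4.17 in control replicates 1, 2 and 3. They were 8.96, 5.04 and 10.75 at 24 h, 9.49, 13.17 and 5.03 at 48 h, and 5.87, 7.96 and 10.83 at 72 h, in the same order of replicates. The controls were uniformly low, whereas 24 h replicate 2 and 48 h replicate 3 lay among the controls and 48 h replicate 2 was the highest array. All 3 arrays at 72 h were above the controls, while the 24 and 48 h groups overlapped them. The mean difference from control was 3.43 ± 1.93 SE at 24 h (limma, adjusted p = 0.591), 4.41 ± 1.93 at 48 h (21.3-fold, adjusted p = 0.360) and 3.40 ± 1.93 at 72 h (adjusted p = 0.542). The SD within a group was 2.92 at 24 h, 4.08 at 48 h and 2.49 at 72 h, against 0.57 in controls (n = 3 each). Without HIFU_48h replicate 2 the 48 h difference was 2.44, and without HIFU_48h replicate 3 it was 6.51.

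Cxcl3, a ligand of the same receptor, had signals of 5.41, 6.20 and 6.43 in controls. At 24 h they were 8.09, 5.54 and 8.19, at 48 h 8.66, 10.34 and 6.58, and at 72 h 6.47, 7.26 and 9.32. All 48 and 72 h arrays lay above the controls, by as little as 0.04 for 72 h replicate 1, and 24 h replicate 2 lay among them. Its mean exceeded that of controls by 1.26 ± 1.00 SE, 2.51 ± 1.00 and 1.67 ± 1.00 (limma, adjusted p = 0.708, 0.323 and 0.566). Without HIFU_48h replicate 2 the 48 h value was 1.61, and without HIFU_72h replicate 3 the 72 h value was 0.85.

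Cxcl2 and Cxcl3 were high and low on the same arrays. Across the 12 arrays their signals correlated with Pearson's r of 0.948 and Spearman's rho of 0.839. Over the 9 HIFU arrays r was 0.960, and it was 0.894 without HIFU_48h replicate 2 and HIFU_72h replicate 3, the arrays farthest from the median of Cxcl2. These values describe 12 tumors that also differ in group and in cell content, and carry no p. Of 19504 other genes, Cxcl3 was the one most like Cxcl2, followed by Myh9, a nonmuscle myosin (r = 0.943), and Hcar2, a receptor for nicotinic acid and ketone bodies found on neutrophils and macrophages (r = 0.941). Next after Cxcl2, the genes most like Cxcl3 were Hcar2 (r = 0.924) and Saa3, an acute-phase serum amyloid (r = 0.923).

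Cxcl5, a ligand known from epithelial and stromal cells and platelets, showed smaller differences. Its signals were 5.88, 5.35 and 3.76 in controls, 6.31, 3.93 and 6.43 at 24 h, 5.91, 8.88 and 4.49 at 48 h, and 4.99, 7.91 and 6.86 at 72 h. Every HIFU group overlapped the controls, and the high values were those of 48 h replicate 2 and 72 h replicate 2. Against control it differed by 0.56, 1.43 and 1.59 (each ± 1.12 SE; limma, adjusted p = 0.898, 0.600 and 0.642). Without HIFU_48h replicate 2 the 48 h value was 0.20. The genes most like Cxcl5 over the 12 arrays were Loxl3, Arhgap9 and Igf2r, with r of 0.954, 0.948 and 0.931.

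The probe set of Cxcl1, the ligand also known as KC, did not share the pattern of that of Cxcl2, although the promoter windows hold the same run of letters. Its signals were 5.36, 5.48 and 4.20 in controls, 5.08, 5.37 and 5.45 at 24 h, 4.61, 4.75 and 4.17 at 48 h, and 5.0, 4.19 and 5.83 at 72 h. The range over all 12 arrays was 1.66, against 9.0 for Cxcl2, and every HIFU group overlapped the controls. At 24, 48 and 72 h it differed from control by 0.29, -0.50 and -0.01 (each ± 0.42 SE; limma, adjusted p = 0.855, 0.632 and 0.998), and the 95% intervals at the 3 times together reached from -1.43 to 1.22. From 24 to 48 h Cxcl1 differed by -0.79 ± 0.42 SE (limma, adjusted p = 0.999). All 3 arrays at 48 h lay below all 3 at 24 h, as they did for 3.70% of probe sets. Its correlation with Cxcl2 across the 12 arrays was 0.197 (rho 0.301). The genes most like it were Ggn, Wipf3 and Dnase1 (r = 0.885, 0.857 and 0.852). The mean signal of the Cxcl1 probe set was above that of 44.8% of probe sets. With signals in the lower part of the range, overlap does not show that the transcript was unchanged.

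Csf3 was near the bottom of the signal range. It measured 3.63, 3.46 and 3.82 in controls, 3.16, 3.48 and 3.56 at 24 h, 3.34, 3.15 and 3.58 at 48 h, and 3.58, 3.46 and 3.61 at 72 h. All groups overlapped within a range of 0.67, and the probe set was among the lowest 25% by mean signal. Against control they differed by -0.24, -0.28 and -0.09 (each ± 0.21 SE; limma, adjusted p = 0.737, 0.578 and 0.931), with 95% intervals between -0.73 and 0.37. At a signal this low, overlap does not show that the transcript was unchanged. The genes most like it were Mageb18, Smc2 and Psme3 (r = 0.892, 0.882 and 0.876).

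**Figure D2:**
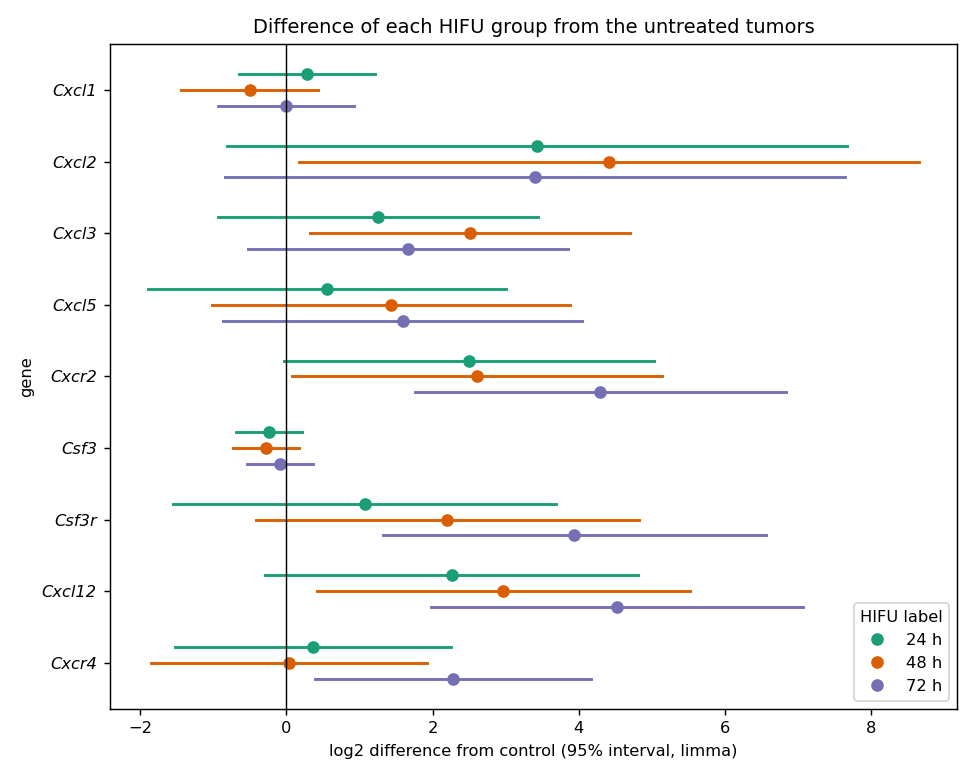
Log2 difference from control (horizontal axis) of each gene at 24, 48 and 72 h, with points for the estimate and lines for its 95% interval from limma. At 48 h the intervals of Cxcl2, Cxcl3, Cxcr2 and Cxcl12 lie above 0 before adjustment over the 22206 probe sets. At 72 h those of Cxcr2, Csf3r, Cxcl12 and Cxcr4 do so. No gene passed after adjustment.

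The receptor genes had higher means in HIFU tumors, most at 72 h, without passing the adjusted threshold. Cxcr2, which neutrophils use to sense the 4 ligands, had signals of 5.06, 4.84 and 4.29 in controls. They were 8.70, 5.24 and 7.75 at 24 h, 5.67, 9.90 and 6.43 at 48 h, and 8.04, 10.92 and 8.12 at 72 h. All 9 HIFU arrays lay above all 3 controls, as they did for 1.76% of probe sets, although 24 h replicate 2 exceeded the highest control by only 0.18. Its mean exceeded control by 2.50 ± 1.15 SE at 24 h, 2.60 ± 1.15 at 48 h and 4.30 ± 1.15 at 72 h (19.7-fold; limma, adjusted p = 0.517, 0.366 and 0.281). For the mean of the HIFU groups the difference was 3.13 ± 0.94 SE (unadjusted p = 0.0065 and adjusted p = 0.191, limma). The step from 48 to 72 h, 1.69 ± 1.15 SE, was within the spread (adjusted p = 0.861), and so was that from 24 to 48 h (0.10 ± 1.15 SE, adjusted p = 0.999). Without HIFU_48h replicate 2 the 48 h difference was 1.32.

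Csf3r, the receptor for granulocyte colony-stimulating factor, had signals of 6.55, 5.65 and 6.46 in controls, 8.76, 5.24 and 7.88 at 24 h, 7.40, 10.80 and 7.06 at 48 h, and 8.71, 12.46 and 9.31 at 72 h. The 48 and 72 h arrays were all above the controls, and 24 h replicate 2 was below them. The differences from control were 1.07 ± 1.19 SE, 2.20 ± 1.19 and 3.94 ± 1.19 (15.3-fold at 72 h; limma, adjusted p = 0.799, 0.446 and 0.309). The mean was lowest in controls and highest at 72 h. No neighbouring groups in that order passed, the step from 48 to 72 h being 1.74 ± 1.19 SE (adjusted p = 0.861). Without HIFU_72h replicate 2 the 72 h difference was 2.79, and without HIFU_48h replicate 2 that at 48 h was 1.01.

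Cxcr2 and Csf3r followed one another across the 12 arrays (r = 0.946, rho = 0.937; r = 0.888 without HIFU_72h replicate 2 and HIFU_48h replicate 2). The genes most like Csf3r were Stfa2l1, a stefin of neutrophils (r = 0.983), Nfam1, an immune receptor adaptor (r = 0.980), and Cfp, the complement factor properdin (r = 0.976). Those most like Cxcr2 were Abi3bp, Bgn and Ppic (r = 0.974, 0.965 and 0.964), of which Bgn encodes biglycan, a proteoglycan of connective tissue.

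Cxcl12 had the largest mean difference of the 9 genes at 72 h. Its signals were 8.11, 8.06 and 9.09 in controls, 11.71, 8.49 and 11.84 at 24 h, 10.39, 13.60 and 10.18 at 48 h, and 11.57, 15.12 and 12.13 at 72 h. All 48 and 72 h arrays lay above the controls, and 24 h replicate 2 lay among them. The group means lay above control by 2.26 ± 1.16 SE, 2.97 ± 1.16 and 4.52 ± 1.16 (22.9-fold at 72 h; limma, adjusted p = 0.568, 0.315 and 0.275). For the mean of the HIFU groups it was 3.25 ± 0.95 SE (unadjusted p = 0.0054 and adjusted p = 0.178, limma). The step from 48 to 72 h was 1.55 ± 1.16 SE (adjusted p = 0.874). Without HIFU_48h replicate 2 the 48 h difference was 1.86, and without HIFU_72h replicate 2 that at 72 h was 3.43. Cxcl12 followed Csf3r (r = 0.968) and Cxcr2 (r = 0.962) more closely than Cxcr4 (r = 0.793) over the 12 arrays. The genes most like Cxcl12 were Lyz2, lysozyme of macrophages and neutrophils (r = 0.994), Sfrp2, a secreted Wnt modulator (r = 0.983), and Lum, the collagen-binding proteoglycan lumican (r = 0.983).

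Cxcr4, the receptor of Cxcl12 on many blood and stromal cells, differed less from control than Cxcl12 did at each time. Its signals were 6.53, 6.20 and 6.19 in controls, 6.78, 5.95 and 7.29 at 24 h, 4.95, 7.78 and 6.31 at 48 h, and 7.86, 10.73 and 7.17 at 72 h. The 72 h arrays were all above the controls, and the 24 and 48 h groups spanned them. The differences from control were 0.37, 0.04 and 2.28 (each ± 0.86 SE; limma, adjusted p = 0.914, 0.989 and 0.368), and 72 h exceeded 48 h by 2.24 ± 0.86 SE (unadjusted p = 0.024, adjusted p = 0.746). Without HIFU_72h replicate 2 the 72 h difference was 1.21. Tlr7, a receptor for single-stranded RNA in immune cells, was the gene most like it (r = 0.974), before Aoc3 and Arhgap15 (r = 0.966 and 0.965).

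Counted over the set, 1 gene (Cxcr2) had all 3 arrays above all controls at 24 h, 4 genes (Cxcl3, Cxcr2, Csf3r and Cxcl12) at 48 h, and 6 genes (these 4 with Cxcl2 and Cxcr4) at 72 h. The shares of all probe sets were 6.84%, 10.3% and 8.99%. No member had all arrays below the controls at any time. The 3 comparisons share their controls, so these counts are not independent of one another. Nor do they test the set, whose genes were picked with earlier results of these data known. With array weights estimated by limma, 3 genes passed at 72 h: Cxcr2 (3.45 ± 0.66 SE, adjusted p = 0.0139), Csf3r (3.39 ± 0.69 SE, adjusted p = 0.0169) and Cxcl12 (3.95 ± 0.64 SE, adjusted p = 0.00833). That setting called 8.31% of all probe sets at 72 h and gave HIFU_72h replicate 2 the lowest weight (0.306) and control replicate 2 the highest (4.20).

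By array, the set did not move as a unit. In HIFU_24h replicate 2, 1 of the 9 genes was above the highest control and 2 were below the lowest. In HIFU_48h replicate 3 these numbers were 4 and 1. The other HIFU arrays had 6 to 8 of the 9 genes above the highest control. The array highest in the ligands Cxcl2 and Cxcl3 was 48 h replicate 2, followed by 72 h replicate 3. That highest in Cxcr2, Csf3r and Cxcl12 was 72 h replicate 2, followed by 48 h replicate 2. In 72 h replicate 2, Cxcl12 was 6.70 above the control mean and Cxcl2 3.14 above it. In 48 h replicate 1 the order was the opposite, with Cxcl2 4.67 and Cxcl12 1.97 above it.

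**Figure D3:**
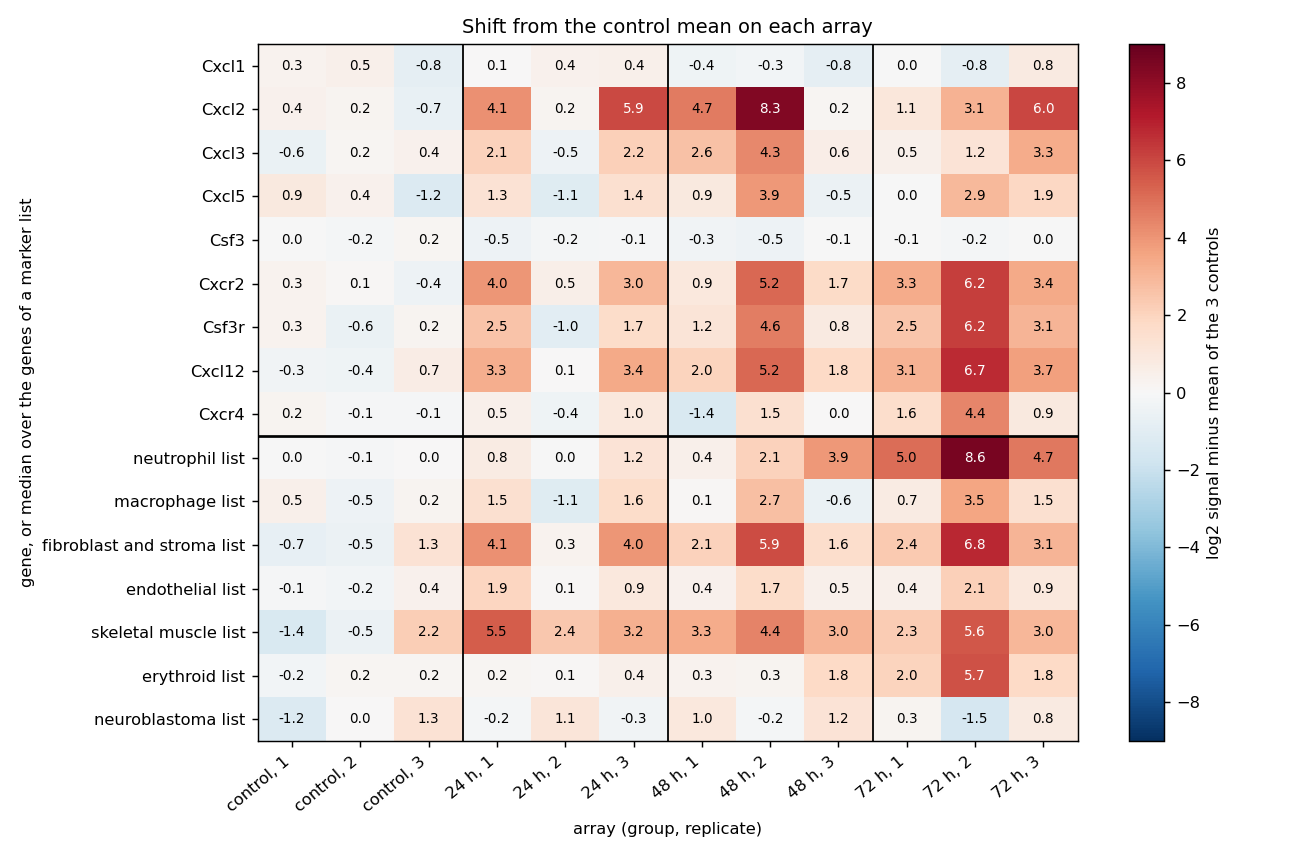
Log2 signal minus the mean of the 3 controls on each of the 12 arrays (columns), for the 9 genes (above the line) and as the median over each of 7 marker lists (below it), with red for higher and blue for lower. The row of Cxcl12 is high on the arrays where the fibroblast list is high, and the neutrophil list is high on 48 h replicate 3 and all 72 h arrays.

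Markers of other cells were high on many of the same arrays. In bulk tissue, more cells of a type and more RNA per cell cannot be told apart. Of 18 measured neutrophil markers, 15 had a higher mean than in controls at 24 h and 18 at 48 and at 72 h, and 1, Lcn2, passed at each time. The mean signal over the list was between 3.61 and 3.81 in controls, 4.20 and 5.99 at 24 h, 5.17 and 8.18 at 48 h, and 9.03 and 12.14 at 72 h. Cxcr2 and this list did not have the same order of arrays. In HIFU_24h replicate 1 Cxcr2 was 3.97 above the control mean and the neutrophil median 0.76, whereas in HIFU_48h replicate 3 they were 1.70 and 3.93.

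Single neutrophil genes also differed in the arrays on which they were high. The examples Retnlg, S100a8 and Ngp were chosen with their values in view. Retnlg, a resistin-like gene of mature neutrophils, measured 5.21, 3.30 and 3.93 in controls, 11.85, 6.23 and 11.70 at 24 h, 7.09, 13.54 and 11.55 at 48 h, and 14.47, 16.08 and 12.67 at 72 h. S100a8, a calcium-binding protein abundant in neutrophils, measured 2.54 to 3.26 in controls, 9.85, 3.78 and 8.86 at 24 h, 7.49, 10.16 and 12.80 at 48 h, and 12.90, 16.51 and 12.38 at 72 h. Ngp, a granule gene of neutrophil precursors in the marrow, measured 3.02 to 3.13 in controls and 3.13 to 4.79 in the 24 h arrays and 48 h replicates 1 and 2. It measured 13.25 in 48 h replicate 3 and 15.76, 17.65 and 14.14 at 72 h. The erythroid list (5 of 10 markers measured) was between 1.78 and 5.74 above the control mean on those same 4 arrays, against at most 0.44 on the other arrays. Bone markers, 10 of 10 measured, were high on the same 4 arrays, with medians of 0.54 in 48 h replicate 3 and 0.87, 3.56 and 0.51 at 72 h, against at most 0.27 elsewhere. At 72 h all 10 had a higher mean than in controls and 1 passed, Ibsp, which encodes bone sialoprotein (4.93, limma, adjusted p = 0.0375). The keratinocyte list (7 of 8 markers measured) had medians of 1.73 in 48 h replicate 3 and 0.85, 2.89 and 0.17 at 72 h, against at most 0.19 elsewhere, and 0 passed. The 72 h values of Cxcr2, Csf3r, Cxcl12 and Cxcr4 thus come from arrays that are all high in Ngp and in erythroid and bone markers. On 48 h replicate 3, also high in these markers, the same genes were 1.70, 0.84, 1.76 and 0.003 above the control mean. The part of neutrophil precursors, erythroid cells, bone cells and keratinocytes in the differences was not tested.

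Stromal markers were high on the arrays high in Cxcl12. The median of the 9 measured fibroblast markers, among them collagens, Dcn and Lum, was between -0.74 and 1.33 in controls, 0.35 and 4.13 at 24 h, 1.57 and 5.86 at 48 h, and 2.38 and 6.79 at 72 h. All 9 had a higher mean than in controls at each time, and 0 passed. The 2 arrays with the highest fibroblast medians, 72 h replicate 2 and 48 h replicate 2, were also the highest in Cxcl12, and the HIFU array with the lowest, 24 h replicate 2, was the lowest HIFU array. The mean signal over that list was between 7.03 and 8.94 in controls and between 8.20 and 13.72 in HIFU arrays. The macrophage list, of which 11 of 12 markers were measured, had medians between -1.12 and 3.52 in HIFU arrays and was highest on the same 2 arrays. The part of stromal, muscle or macrophage RNA in the member genes was not tested.

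**Figure D4:**
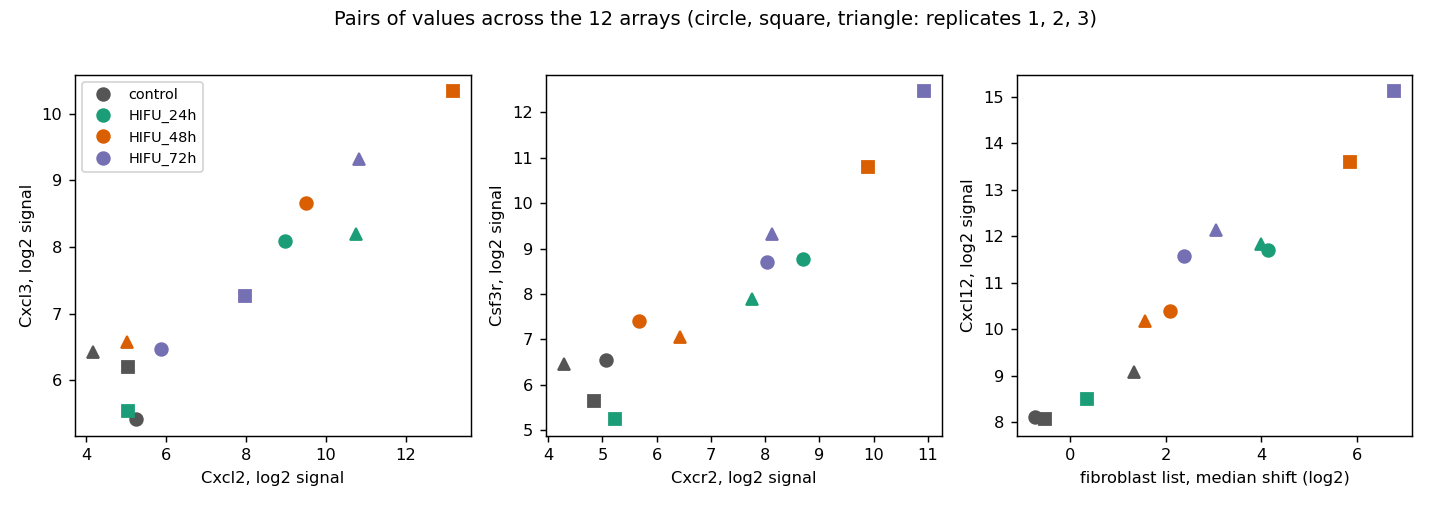
Log2 signals of Cxcl3 against Cxcl2 (left), Csf3r against Cxcr2 (middle), and of Cxcl12 against the median shift of the fibroblast list (right), with a point for each of the 12 arrays, coloured by group. Points rise together in each panel, and 24 h replicate 2 lies with or near the controls.

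Other genes of the pathway were taken from 4 lists with 63 genes, 57 of them measured. None passed in either direction at any time (limma), and at an unadjusted p under 0.05 there were 5 higher and 4 lower at 24 h, 4 and 5 at 48 h, and 12 and 3 at 72 h. The shares of all probe sets under 0.05, both directions together, were 9.84%, 13.3% and 11.2%. Among 12 other CXC ligands and receptors, Ppbp, the platelet basic protein whose product also acts on Cxcr2, differed most. It measured 3.59, 4.14 and 3.73 in controls, 6.22, 4.32 and 7.11 at 24 h, 5.77, 5.90 and 10.93 at 48 h, and 11.23, 13.15 and 9.64 at 72 h. Every HIFU array was above every control, as for 1.76% of probe sets, and the 4 highest were the 4 arrays high in Ngp. The difference was 7.52 ± 1.29 SE at 72 h (limma, adjusted p = 0.135). Cxcl16, the ligand of Cxcr6, was lower than control by 2.20 ± 0.75 SE at 24 h (a difference of -2.20, adjusted p = 0.405), and differed by -1.77 at 48 h and -0.51 at 72 h. Cxcr6 differed by -0.48, 0.33 and -0.47 (each ± 0.28 SE, limma, adjusted p = 0.596, 0.632 and 0.555). Its mean signal was low, 3.29 over all arrays and 3.78 at 48 h. Ackr1, a scavenging receptor of red cells and venules, differed by 0.16, 0.18 and 0.72 (each ± 0.27 SE; adjusted p = 0.875, 0.815 and 0.369). Ackr3, the other receptor of Cxcl12, had means of 3.93 in controls and 5.0, 5.13 and 5.20 at the 3 times.

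The list of inducers and regulators of the ligands holds cytokines and NF-kappaB subunits together with negative regulators such as Nfkbia, Tnfaip3, Zfp36 and Zc3h12a. Of 18 measured, 10, 8 and 12 had a higher mean than control at 24, 48 and 72 h, with medians of 0.12, -0.14 and 0.27. Il1b, which induces the ligands, had means of 6.68 in controls and 7.52, 7.79 and 8.39 at the 3 times, and Tnf had 4.12, 3.16, 3.58 and 4.66. The 4 smallest p-values of the F test belonged to Il17rc and Traf3ip2, the receptor chain and adaptor of interleukin-17 signaling, Il6 and Csf2. At 24, 48 and 72 h Il17rc differed from control by -1.51, -1.64 and -1.29 (each ± 0.53 SE; limma, adjusted p = 0.407, 0.261 and 0.402) and Traf3ip2 by -1.22, -1.42 and -1.30 (each ± 0.47 SE; adjusted p = 0.446, 0.265 and 0.356). Il6 differed by 0.47, -1.68 and -1.24 (each ± 0.73 SE; adjusted p = 0.862, 0.353 and 0.556). Csf2, at a signal lower than that of Csf3, differed by 0.03, 0.84 and 0.16 (each ± 0.29 SE; adjusted p = 0.988, 0.273 and 0.898). Il17a and Il17f, the cytokines themselves, had means between 2.73 and 3.66 in all groups, low on this array.

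The list of receptor signaling genes and transcription factors of granulocyte formation had 11, 12 and 12 of 14 measured genes with a higher mean than control at 24, 48 and 72 h, with medians of 0.30, 0.33 and 0.92. Cebpd, a transcription factor of myeloid and acute-phase responses, was 1.76 ± 0.52 SE above control at 24 h, 1.47 ± 0.52 at 48 h and 2.03 ± 0.52 at 72 h (limma, adjusted p = 0.329, 0.286 and 0.275). All 9 HIFU arrays exceeded the controls, as they did for 1.76% of probe sets. The lowest was 6.43 in 48 h replicate 1, against 6.23 in control replicate 3. Runx1, a regulator of blood cell formation, differed by 2.10, 1.87 and 2.75 (each ± 0.98 SE; adjusted p = 0.524, 0.431 and 0.352). Pik3cg, a lipid kinase of leukocyte migration, differed by -0.25, 0.15 and 2.00 (each ± 0.98 SE; adjusted p = 0.952, 0.962 and 0.478), and Gnai2, a G protein subunit used by chemokine receptors, by -0.18, -0.09 and 1.04 (each ± 0.45 SE; adjusted p = 0.924, 0.952 and 0.425). Socs3, a feedback inhibitor induced by Csf3r signaling, had means of 4.96, 5.16, 5.08 and 4.94 in controls and at 24, 48 and 72 h.

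Of 13 measured genes for adhesion and exit from vessels, 5, 8 and 10 had a higher mean than control at 24, 48 and 72 h. Vcam1, which binds integrins on leukocytes, was lower than control by 0.82 at 24 h (-0.82 ± 0.51 SE) and higher by 2.01 ± 0.51 SE at 72 h (limma, adjusted p = 0.633 and 0.275), with -0.60 at 48 h. Selp, the P-selectin of endothelium and platelets, differed by 1.70, 2.02 and 3.14 (each ± 0.65 SE; adjusted p = 0.441, 0.259 and 0.255). Cd177, a surface protein of neutrophils that is also in the neutrophil list, differed by 0.23, 0.76 and 4.47 (each ± 0.88 SE; adjusted p = 0.951, 0.743 and 0.216), and Jam3, a junction protein, by -0.79, -1.22 and -1.23 (each ± 0.34 SE; adjusted p = 0.490, 0.224 and 0.290). Icam1 had means of 5.65, 4.87, 4.96 and 5.29 in controls and at the 3 times.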

How the data were processed

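RNA of 12 frozen tumors was measured on Clariom S mouse arrays (Affymetrix), 1 per tumor. The deposited table holds log2 values, 1.75 to 19.93, for 22206 probe sets; base 2 was read from that range, and every fold rests on it. The submitters' processing notes list Transcriptome Analysis Console 4.0. No source used here gives the summarization, background correction or genome build. Array medians lay between 5.43 and 5.68, and nothing was rescaled. With 3 arrays per group, their number limits the precision.

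Symbols came from the platform annotation, updated through RefSeq (GRCm38.p6): 19572 probe sets had 1 symbol, 0 had several and 2634 had none. A gene with several probe sets was represented by the one with the highest mean. Group means were fitted to all 12 arrays with limma 3.58.1 in R 4.3.3 (lmFit, eBayes, prior degrees of freedom 3.37). Tests were two-sided, with Benjamini-Hochberg adjustment over all probe sets and a threshold of 0.05. The fit was tested on simulated data. Python 3.11.15 drew the figures.

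The members and lists were chosen with earlier results of these data known. Besides the members, the text names by rule the 4 genes of each pathway list with the smallest F-test p and the 3 genes most correlated with each member. Ackr3, Il1b, Tnf, Il17a, Il17f, Socs3 and Icam1 were added for their roles after their values were seen. Alternatives were a replicate block, a filter leaving out the lowest 25% of probe sets, quantile normalization, median centring, array weights, a robust fit with an intensity trend, fits on the compared groups alone, averaged probe sets, leaving out each array, and, chosen after seeing the data, leaving out control replicate 3 with HIFU_72h replicate 2.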

Additional observations from a re-analysis of the deposited data

How the results depend on the processing

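No member passed on the deposited values, and among 166 counts of members past the threshold under 21 alternatives only 3 differed from 0. All came from array weights, with 3 members at 72 h, 3 for the mean of the HIFU groups and 3 in the F test. Of all 22206 probe sets, that setting called 1846, 3787 and 1488 in the same order. Leaving out 1 array gave 0 members in each contrast, while probe sets called rose to as many as 253 at 24 h, 312 at 48 h, 194 at 72 h and 398 for the mean of the HIFU groups, each without control replicate 3. Whether replicate numbers pair the tumors is not known from the labels. Deviations of same-numbered arrays from their group means had correlations of -0.608 to 0.625 (18 pairs). For differently numbered arrays they were -0.582 to 0.597 (36 pairs). With the replicate block 0 members passed in each contrast, with 3, 0 and 1 probe sets called at 24, 48 and 72 h. Median centring moved the median of all probe sets to -0.20 at 72 h, -0.11 from 48 to 72 h and -0.12 from 24 to 72 h. Csf3 is left out by the filter on low values. Of 1307 member differences under alternatives, 1245 kept direction and side of the threshold, 6 were past it with array weights and 56 changed sign, each in a comparison where the difference on all 12 arrays was smaller than its SE. Centring turned Cxcr4 at 48 h against control to -0.023. Array weights turned the sign, against control, of Cxcl1 (-0.092) at 24 h, of Cxcr4 (-0.10) at 48 h, of Cxcl1 (0.15) and Csf3 (0.054) at 72 h, and, between HIFU groups, of Cxcl2 (-0.071), Cxcr2 (-0.83), Csf3 (0.093) and Cxcl12 (-0.030) from 24 to 48 h, of Cxcl2 (0.61) and Cxcl3 (0.11) from 48 to 72 h, of Cxcl1 (0.24) and Cxcl2 (0.54) from 24 to 72 h. Leaving out control replicate 3 and HIFU_72h replicate 2 together turned the sign, against control, of Cxcl1 (-0.12) and Cxcl5 (-0.058) at 24 h, of Cxcr4 (-0.018) at 48 h, of Csf3 (0.05) at 72 h, and, between HIFU groups, of Cxcl5 (-0.50) from 48 to 72 h, of Cxcl1 (0.12) and Cxcl2 (0.10) from 24 to 72 h. Leaving out 1 array gave ranges that cross 0, against control, for Cxcl1 (-0.12 to 0.52) and Cxcl5 (-0.058 to 1.37) at 24 h, for Cxcr4 (-0.68 to 0.74) at 48 h, for Cxcl1 (-0.42 to 0.40) and Csf3 (-0.17 to 0.005) at 72 h, and for Cxcl1 (-0.48 to 0.16) for the mean of the HIFU groups. Between HIFU groups they did so for Cxcl2 (-0.99 to 3.08), Cxcr2 (-1.18 to 0.94), Cxcl12 (-0.40 to 1.31), Csf3 (-0.16 to 0.06), Cxcr4 (-1.04 to 0.37), Cxcl5 (-0.36 to 1.84) and Csf3r (-0.063 to 1.86) from 24 to 48 h, for Cxcl5 (-0.81 to 1.39), Cxcl2 (-3.11 to 0.96) and Cxcl3 (-1.82 to 0.063) from 48 to 72 h, for Cxcl2 (-1.64 to 1.22), Cxcl3 (-0.46 to 1.02) and Cxcl1 (-0.70 to 0.12) from 24 to 72 h.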
